A study of Homo sapiens with 6 samples.

Results

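The genes described here encode the human proteasome: the subunits of its 20S core and 19S regulatory particle, the inducible catalytic subunits of the immunoproteasome, the activators and the inhibitor that bind the core, and the factors that assemble it. They were taken from the deposited table as every protein-coding gene whose symbol begins with PSMA to PSMG followed by a number, plus POMP, ADRM1 and SEM1. This gave 48 genes of the 12227 listed. The rule itself used symbols and no measured values, but it was chosen with earlier results of these data known. PSMB9, PSMA8 and PSMB11, which the same rule would take, were not analysed here. RNA was sequenced from PC3, an established human prostate cancer cell line, grown in DMEM with fetal bovine serum. The labels give control cells, with genotype WT and a control short hairpin RNA (shRNA), and cells with an shRNA against VprBP and genotype VprBP knockdown, in 3 libraries each. VprBP is the protein encoded by DCAF1, which brings substrates to the CRL4 ubiquitin ligase and has also been described as a histone kinase. The sources used here do not give the hairpin sequences, the vector, the time after its delivery or whether the cells were clones or pools. Replicate numbers 1 to 3 may stand for hairpins, cultures or repeat libraries. The p-values therefore set the group difference against the spread among these samples only, and that spread may be technical.

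The proteasome degrades proteins tagged with ubiquitin. Its 20S core is a barrel of stacked rings: alpha subunits form the outer rings and gate the entrance, and beta subunits form the inner rings, in which PSMB5, PSMB6 and PSMB7 carry the catalytic sites. The 19S particle recognises ubiquitin, removes it with a deubiquitinase in its lid, and unfolds and threads the substrate with a ring of ATPases in its base. Interferons induce PSMB8, PSMB9 and PSMB10, which replace PSMB5, PSMB6 and PSMB7 in newly built cores and alter the peptides made for antigen presentation. Dedicated chaperones build both particles. When proteasome activity falls, the transcription factor NRF1 (NFE2L1) is processed and raises most subunit genes together. Cancer cells, with a high load of misfolded protein, are often dependent on this machinery.

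The values are a scaled signal per gene in which 1 read was worth 0.0254 to 0.0439, depending on the library. Estimated depth was 22981865 to 32293134 reads in control and 23029440 to 39633828 in knockdown libraries. DCAF1, the targeted gene, was 79.4, 78.5 and 78.7 in control replicates 1 to 3 and 38.5, 41.1 and 40.2 in knockdown replicates 1 to 3, so 50.6% of its control level remained (log2 fold change -0.97, SE 0.05; limma adjusted p = 3.56e-11). The 5 epithelial markers KRT8, KRT18, KRT19, EPCAM and CDH1 were all listed, with a summed value of 2234 to 2263 in control and 2715 to 2770 in knockdown libraries. KRT8 and KRT18 rose (1.64-fold and 1.52-fold) and EPCAM rose 1.11-fold, KRT19 was not called (1.00-fold), and CDH1 fell by 0.08 on the log2 scale (limma adjusted p = 0.0315). None of 9 leukocyte markers was in the analysed table (0 of 9), nor was KLK3, a luminal prostate gene. Of the other cell types, 1 of 4 endothelial markers was listed, PECAM1, at 53.0 to 55.2 in control and 22.6 to 24.0 in knockdown, and 1 of 6 fibroblast markers, COL1A1, at 23.6 to 25.4 and 20.6 to 28.7. Whether these marker differences bear on the proteasome genes was not tested. In bulk RNA, fewer cells of a kind and less RNA per cell cannot be told apart.

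Transcripts of nearly the whole proteasome were modestly higher in the knockdown. By limma on log2(value + 0.5), with p-values adjusted over all 12227 genes and a call at an adjusted p under 0.05, 40 of the 48 genes rose and 2 fell (PSME4 and PSMG4). The test made no call for 6 (PSMA6, PSMC4, PSMD3, PSMD7, SEM1 and PSMG2). Members called higher made up 83.3% and members called lower 4.17%, against 33.0% higher and 27.8% lower among all listed genes (60.9% in either direction). Many proteasome genes are abundant: 43 have a mean value of at least 50, of which 36 rose and 1 fell, and among the 4778 listed genes of that abundance 38.3% were called higher and 31.5% lower. The median log2 fold change of the 48 was 0.26, with a range of -0.41 to 0.61, while the median of all listed genes was 0.02.

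Most changes were small. Among the risen members the fold between group means ran from 1.07 (PSMF1) to 1.53 (PSME2). On the log2(value + 0.5) scale, 14 of the 48 members (29.2%) rose by at least 25%, as did 16.2% of all listed genes, and both members that fell did so by at least 20%, as did 14.9% of all listed genes. At a minimum of 1.5-fold, PSME2 and PSMD2 were left among the higher genes, where the background was 5.43%, and 0 members among the lower, where it was 6.17%. The values nevertheless separated well: in 42 members (87.5%) every knockdown library lay above every control library, against 35.1% of all listed genes. In another 2 every knockdown library lay below, against 29.6% of all listed genes, and the groups overlapped in the remaining 4 (PSMA6, PSMD7, SEM1 and PSMG2). The same shares of all listed genes, 35.1% and 29.6%, are the background for the separated groups named below.

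**Figure D1:**
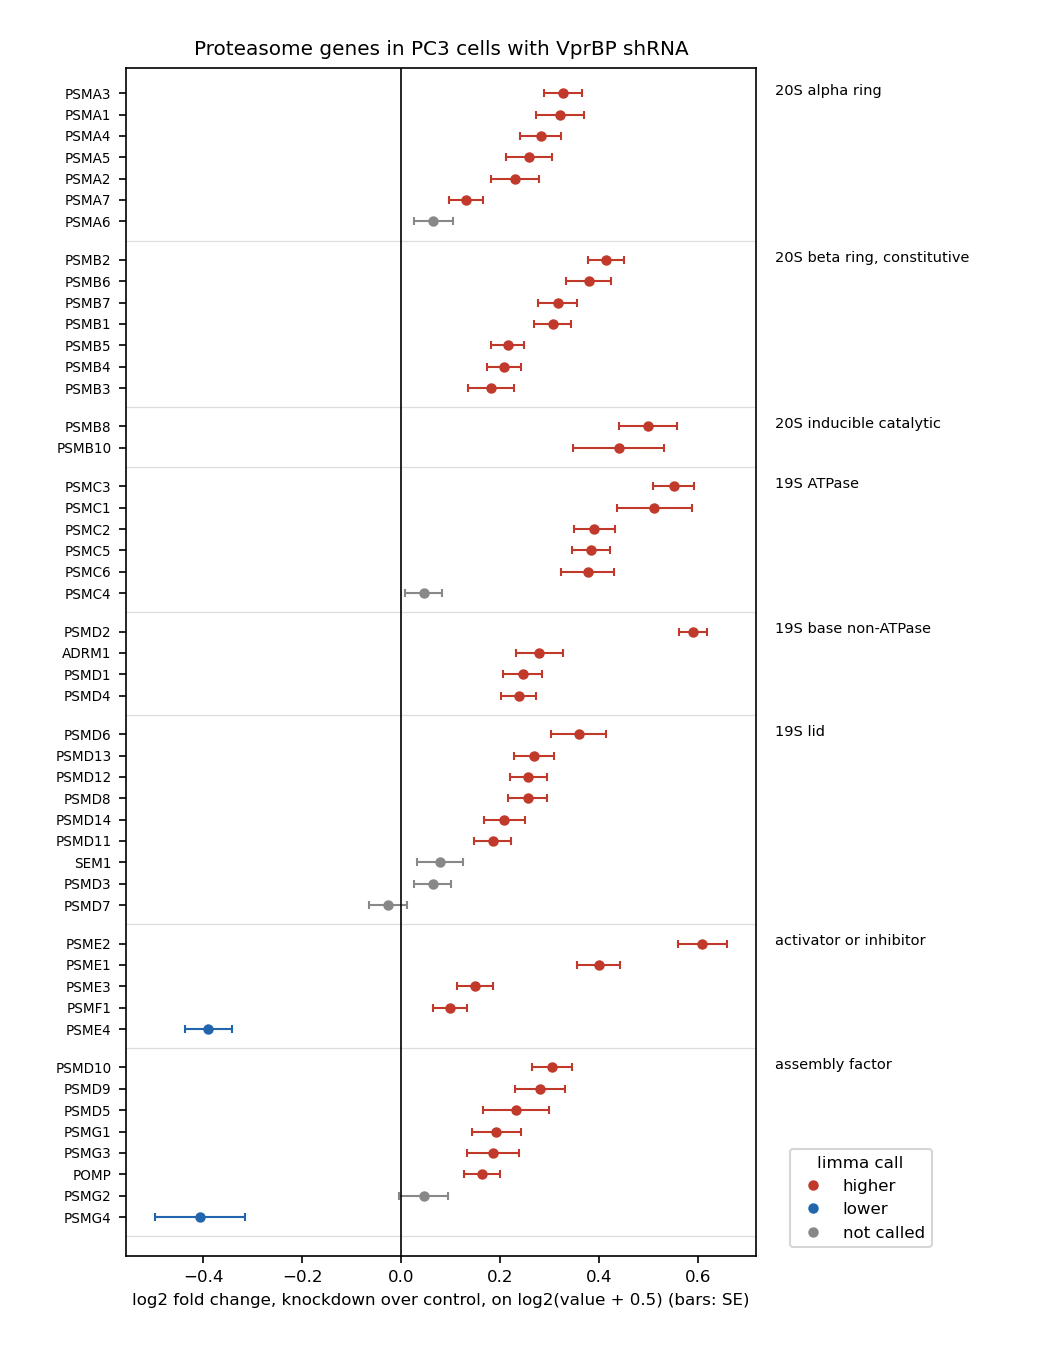
Log2 fold change (x axis, knockdown over control, on log2(value + 0.5)) of each of the 48 proteasome genes (y axis), grouped by role, with bars of 1 SE. Of the points, 40 are called higher (red), 2 lower (blue) and 6 not called (grey), and the values run from -0.41 for PSMG4 to 0.61 for PSME2.

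**Figure D2:**
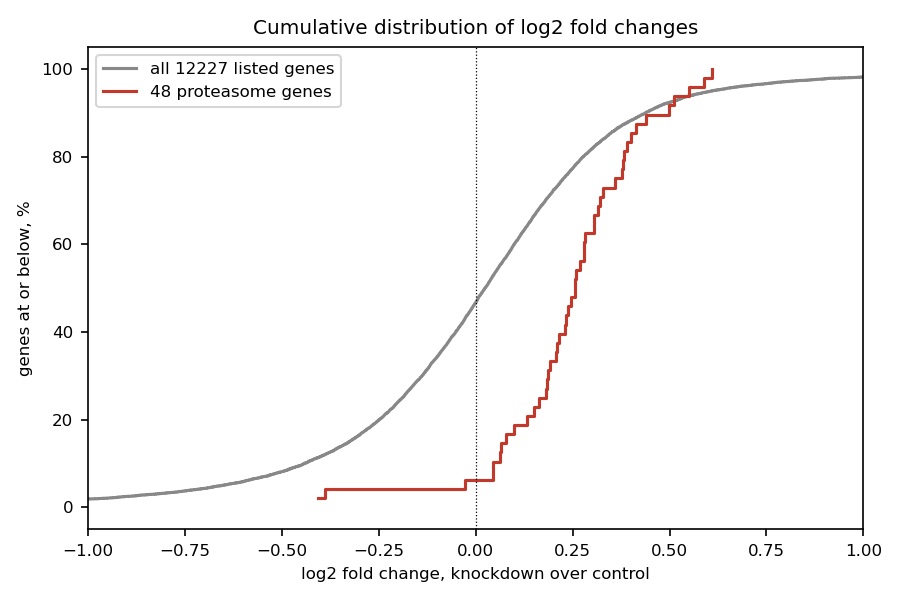
Cumulative share of genes (y axis, %) at or below each log2 fold change (x axis, drawn from -1 to 1, which leaves out the extremes of all genes) for the 48 proteasome genes (red) and all 12227 listed genes (grey). The red steps lie to the right of the grey curve over most of the range and meet it near 0.5, with medians of 0.26 and 0.02.

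The shift was present in each knockdown library. Relative to each gene's control mean, the median over the 48 genes was 1.198, 1.163 and 1.225 in knockdown replicates 1 to 3, whereas it was 1.007, 1.003 and 0.993 in control replicates 1 to 3. The median over all listed genes was 1.015 to 1.020 in the knockdown libraries. Among the 40 genes that rose, knockdown replicate 3 was the highest of the knockdown libraries for 21 and replicate 2 the lowest for 23. Knockdown replicate 3 was also the library farthest from the others of its group over all genes.

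Among all listed genes, 33.0% were called higher and 27.8% lower, which is the background for the counts by symbol and by role. By symbol, the core genes (PSMA and PSMB) counted 15 of 16 higher, with a median log2 fold change of 0.29. The ATPase genes (PSMC) had 5 of 6 higher and a median of 0.39. The remaining 19S symbols (PSMD), which here include the chaperones PSMD5, PSMD9 and PSMD10, had 12 of 14 higher and a median of 0.25. The activator symbols (PSME) had 3 of 4 higher and 1 lower, with a median of 0.27. The assembly symbols (PSMG) had 2 of 4 higher and 1 lower, with a median of 0.12. Differences between these groups were not tested. No 20S or 19S subunit was called lower by limma (0 of 35), also at an unadjusted p under 0.05 (0) and by limma-voom on estimated reads (0).

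The inducible catalytic subunits were scarce and rose. PSMB8, which replaces PSMB5 and is encoded in the major histocompatibility complex on chromosome 6 (32840717 to 32844679, minus strand, hg38), was 28.2, 28.4 and 29.7 in control replicates 1 to 3 and 38.6, 41.8 and 42.5 in knockdown replicates 1 to 3. The groups did not overlap, and the means differed 1.42-fold (log2 fold change 0.50, SE 0.06; limma adjusted p = 1.84e-06). PSMB10, which replaces PSMB7 and lies on chromosome 16 (67934506 to 67936864, minus strand, hg38), was 8.41, 8.95 and 8.98 in control and 12.5, 12.4 and 11.4 in knockdown replicates. Again every knockdown library was above every control library, by 1.38-fold between means (log2 fold change 0.44, SE 0.09; limma adjusted p = 0.000601). PSMB8 shares its locus with PSMB8-AS1 and PSMB9 on the opposite strand and PSMB10 with AC040162.1 on the same strand. Since the sources used here do not give the strand setting of the counting, reads of such overlaps cannot be told apart.

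The PA28 activator genes PSME1 and PSME2, whose products form a cap that opens the core gate and is also interferon-inducible, rose with them. PSME2 (chromosome 14, 24143362 to 24147570, minus strand, hg38) was 48.0, 50.5 and 47.8 in control and 74.97, 70.7 and 78.3 in knockdown replicates 1 to 3. This was the largest positive change of the 48 genes, 1.53-fold (log2 fold change 0.61, SE 0.05; limma adjusted p = 2.93e-08), with no overlap between groups. PSME1 (chromosome 14, 24136163 to 24138967, plus strand, hg38) was 83.6, 78.8 and 85.7 in control and 107, 111 and 109 in knockdown replicates, a 1.32-fold difference between groups that did not overlap (log2 fold change 0.40, SE 0.04; limma adjusted p = 6.96e-07). PSME2 has processed copies in the genome among which reads could be split, so its rank holds only for its own row. The copies PSME2P1 and PSME2P2 were also called higher (log2 fold changes 0.25 and 0.34), and the sum of the gene and both copies was 97.8 ± 2.14 in control and 134.1 ± 3.62 in knockdown (SD, n = 3), 1.37-fold. PSME1 overlaps EMC9, and PSME2 overlaps RNF31, on the opposite strand.

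Interferon acts on the inducible subunits and the PA28 genes through regulatory sequence near their start sites. Their promoters are shown with those of PSME4 and PSMG4, the members that fell. Each stretch runs from 120 bases before to 20 bases after a RefSeq start site (GRCh38.p14), 5′ to 3′ on the gene's strand, and capitals mark the bases from the start site on.
PSMB8 (chr6:32844660-32844799, minus strand): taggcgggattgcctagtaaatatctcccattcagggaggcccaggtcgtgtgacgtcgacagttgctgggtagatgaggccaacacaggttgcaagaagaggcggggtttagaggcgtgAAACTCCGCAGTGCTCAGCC
PSMB10 (chr16:67936831-67936970, minus strand): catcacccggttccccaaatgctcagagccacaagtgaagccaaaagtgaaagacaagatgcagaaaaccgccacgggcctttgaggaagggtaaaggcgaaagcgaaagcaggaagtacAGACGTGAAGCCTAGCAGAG
PSME1 (chr14:24136074-24136213, plus strand): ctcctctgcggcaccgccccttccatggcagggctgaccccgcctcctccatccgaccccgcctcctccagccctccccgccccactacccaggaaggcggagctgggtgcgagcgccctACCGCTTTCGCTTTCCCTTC
PSME2 (chr14:24146591-24146730, minus strand): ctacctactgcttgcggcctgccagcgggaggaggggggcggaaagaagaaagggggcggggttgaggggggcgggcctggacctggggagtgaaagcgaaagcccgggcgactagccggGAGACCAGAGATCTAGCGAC
PSME4 (chr2:53970974-53971113, minus strand): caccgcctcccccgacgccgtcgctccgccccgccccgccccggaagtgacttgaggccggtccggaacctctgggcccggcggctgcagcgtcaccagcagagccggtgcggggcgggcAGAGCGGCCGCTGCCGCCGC
PSMG4 (chr6:3258827-3258966, plus strand): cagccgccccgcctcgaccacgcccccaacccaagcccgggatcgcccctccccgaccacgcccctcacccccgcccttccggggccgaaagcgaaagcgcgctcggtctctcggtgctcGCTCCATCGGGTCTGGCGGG
The share of G and C in these stretches was 56.4% for PSMB8, 52.1% for PSMB10, 71.4% for PSME1 and 67.9% for PSME2, and 80.0% for PSME4 and 75.7% for PSMG4. The 2 genes that fell thus had the highest share of the 6, which is a description of chosen genes and no test. The run gaaagcgaaagc stands before the start site in PSMB10 and PSME2, and also in PSMG4, which fell. PSME1 has it on the other strand, just after its start site. The stretches of PSMB8 and PSME4 lack it on both strands. Whether this run acts on these genes was not tested. RefSeq lists 2 starts for PSMB8, of which the first listed is shown.

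Factors of the interferon response were measured too. IRF9 and STAT2, which act together to switch on interferon-induced genes, both rose. IRF9 was 9.89, 8.41 and 7.10 in control and 63.2, 65.5 and 64.6 in knockdown replicates (log2 fold change 2.87, SE 0.09; limma adjusted p = 1.49e-13). STAT2 rose 1.63-fold. IRF1, an interferon-induced activator of PSMB8 and PSMB10, rose 2.31-fold, from 10.5, 12.4 and 13.1 to 28.8, 28.97 and 25.3. The peptide transporter genes TAP1 and TAP2, which carry proteasome products into the endoplasmic reticulum, rose 1.65-fold and 1.24-fold. NLRC5 was not analysed here. The 5 genes with values all had groups that did not overlap, with knockdown higher, as in 35.1% of all listed genes. Their part in the changes of the proteasome genes was not tested.

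The constitutive catalytic subunits rose as well, by smaller folds. PSMB5, the chymotrypsin-like site, was 178, 173 and 176 in control and 202, 206 and 205 in knockdown replicates 1 to 3, 1.16-fold (log2 fold change 0.22, SE 0.03; limma adjusted p = 4.27e-05). PSMB6, the caspase-like site, was 105, 97.6 and 93.0 in control and 128, 126 and 129 in knockdown, 1.30-fold (log2 fold change 0.38, SE 0.04). PSMB7, the trypsin-like site, was 108, 102 and 104 in control and 132, 127 and 131 in knockdown (log2 fold change 0.32, SE 0.04). For each of the 3 genes, every knockdown library lay above every control library.

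A ratio within a library does not depend on how that library was scaled. The ratio of PSMB8 to PSMB5 was 0.158, 0.164 and 0.169 in control and 0.191, 0.202 and 0.208 in knockdown replicates 1 to 3. The groups did not overlap, with a mean log2 difference of 0.29, and the exact permutation test over the 20 assignments of the libraries gave a two-sided p = 0.1, the smallest that 3 against 3 allows (0.2 adjusted over the 2 ratios). The ratio of PSMB10 to PSMB7 was 0.0781, 0.0882 and 0.0865 in control and 0.0947, 0.0975 and 0.0870 in knockdown, with a log2 difference of 0.14 (exact permutation p = 0.2, adjusted 0.2). Its lowest knockdown library lay within the control range, so this ratio did not separate the groups. Without control replicate 1 its log2 difference was 0.09.

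Per kilobase of coding length, the inducible subunits stayed well under their constitutive counterparts in both groups. The level of PSMB8 was 15.6% of that of PSMB5 in control and 19.1% in knockdown cells, and that of PSMB10 was 8.54% of PSMB7 in control and 9.44% in knockdown. With whole transcript length, a choice made after seeing the data, the PSMB8 level was 18.9% and 23.1% of PSMB5, and the PSMB10 level 6.77% and 7.49% of PSMB7. In control cells the level per coding kilobase ran from 10.7 (PSMB10) to 448 (PSMA3) over the 48 genes. Levels of the 14 constitutive core subunits, which enter each core in equal numbers, spanned 3.60-fold, from 124 (PSMB3) to 448 (PSMA3). That spread came to 11.9-fold per kilobase of whole transcript, with PSMA5 lowest, so the span depends on which length is used.

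**Figure D3:**
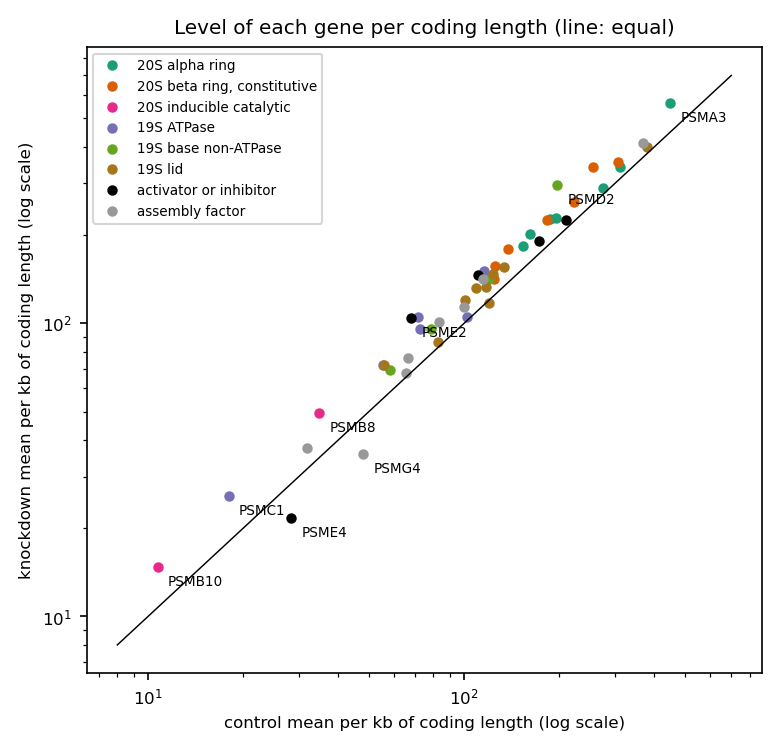
Mean level per kilobase of coding length in control (x axis) and knockdown cells (y axis), both on log scales, for the 48 proteasome genes, with 1 point per gene coloured by role and a line of equal levels. Most points lie just above the line, PSME4 and PSMG4 lie under it, and PSMB10 (10.7 in control) and PSMA3 (448) are the extremes.

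Beyond the catalytic sites, the rest of the 20S core moved in the same direction. All 7 constitutive beta genes rose, with a median log2 fold change of 0.31. PSMB2, a noncatalytic beta subunit, was 148, 159 and 156 in control and 207, 204 and 206 in knockdown replicates, which made it the beta gene with the largest fold after the inducible pair (1.33-fold; log2 fold change 0.41, SE 0.04; limma adjusted p = 6.90e-08). PSMB1, PSMB3 and PSMB4, the other noncatalytic beta genes, had log2 fold changes of 0.31, 0.18 and 0.21. In all 7 the groups did not overlap.

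The alpha ring, which gates the core, had 6 of 7 genes higher and a median log2 fold change of 0.26. PSMA3 was 343, 350 and 335 in control and 436, 404 and 451 in knockdown replicates, 1.26-fold (log2 fold change 0.33, SE 0.04; limma adjusted p = 2.10e-06). PSMA1 was 122, 134 and 126 in control and 163, 148 and 167 in knockdown (log2 fold change 0.32, SE 0.05). PSMA4 was 144, 149 and 145 in control and 180, 168 and 187 in knockdown, 1.22-fold (log2 fold change 0.28, SE 0.04). In all 3, knockdown replicate 2 was the lowest of its group and still above every control library. PSMA5, PSMA2 and PSMA7 rose with log2 fold changes of 0.26, 0.23 and 0.13. PSMA6 was 207, 198 and 205 in control and 213, 202 and 223 in knockdown, and its groups overlapped (log2 fold change 0.07, SE 0.04; limma adjusted p = 0.167). Without knockdown replicate 2 PSMA6 was called higher (log2 fold change 0.10, adjusted p = 0.0428). PSMA3-AS1, a long noncoding RNA that overlaps PSMA3 on the opposite strand, also rose, from 62.0 ± 1.96 to 74.9 ± 2.05 (SD, n = 3).

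Among the 19S ATPases, which unfold substrates and feed them into the core, 5 of 6 genes rose, by 1.30-fold to 1.47-fold, and the median log2 fold change over the 6 was 0.39. PSMC3 (chromosome 11, 47418769 to 47426473, minus strand, hg38) was 96.6, 89.6 and 96.1 in control and 140, 135 and 139 in knockdown replicates, 1.47-fold (log2 fold change 0.55, SE 0.04; limma adjusted p = 8.76e-09). PSMC1 was 22.9, 26.3 and 22.0 in control and 36.5, 34.2 and 31.3 in knockdown, 1.43-fold (log2 fold change 0.51, SE 0.08). PSMC2 was 96.3, 94.7 and 92.3 in control and 125, 119 and 128 in knockdown, 1.31-fold (log2 fold change 0.39, SE 0.04). These 3 genes had no overlap between groups. The interval listed for PSMC2 also overlaps the gene PMPCB on the same strand. PSMC5 and PSMC6 had log2 fold changes of 0.38 each. PSMC4 was the exception, with 130, 124 and 130 in control and 133, 131 and 132 in knockdown (log2 fold change 0.05, SE 0.04; limma adjusted p = 0.302), although its highest control library lay just under its lowest knockdown library.

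The value of PSMC1 needs its processed copy beside it. PSMC1P1 was listed at 140.8 ± 1.94 in control and 187.0 ± 8.02 in knockdown (SD, n = 3; log2 fold change 0.41, SE 0.04; limma adjusted p = 1.73e-07), well above PSMC1 itself at 23.7 ± 2.28 and 34.0 ± 2.60. The counting could have split reads between these near-identical sequences, so the low level of PSMC1 among the ATPases is uncertain. The sum of both was 164.6 in control and 221 in knockdown, 1.34-fold, with no overlap between groups. For PSMA6, the sum with its listed copy PSMA6P1 differed 1.05-fold and the groups overlapped.

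The non-ATPase subunits of the base, which hold the ubiquitin receptors, all rose, with 4 of 4 genes higher and a median log2 fold change of 0.26. PSMD2 (chromosome 3, 184299198 to 184309050, plus strand, hg38), the scaffold RPN1, stood apart with 539, 538 and 528 in control and 809, 805 and 803 in knockdown replicates. Its fold of 1.51 had the smallest error of the 48 genes (log2 fold change 0.59, SE 0.03; limma adjusted p = 3.64e-11). ADRM1, a ubiquitin receptor, was 96.7, 92.0 and 99.7 in control and 117, 123 and 111 in knockdown (log2 fold change 0.28, SE 0.05). PSMD1, the scaffold RPN2, was 169, 172 and 158 in control and 197, 194 and 201 in knockdown (log2 fold change 0.25, SE 0.04). PSMD4, another ubiquitin receptor, had a log2 fold change of 0.24. No base gene had overlapping groups, and PSMD2 changed by more than double the log2 fold change of the other 3.

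The lid removes ubiquitin. Of its 9 genes 6 rose and 3 passed in neither direction, and their median log2 fold change was 0.21. PSMD6 was 68.1, 64.7 and 62.7 in control and 79.4, 80.4 and 91.9 in knockdown replicates, 1.29-fold (log2 fold change 0.36, SE 0.06; limma adjusted p = 3.77e-05). PSMD13 was 126, 122 and 121 in control and 147, 142 and 155 in knockdown (log2 fold change 0.27, SE 0.04). PSMD12 was 138, 138 and 137 in control and 163, 160 and 171 in knockdown (log2 fold change 0.26, SE 0.04). All 3 were highest in knockdown replicate 3. PSMD8, PSMD14 and PSMD11 rose with log2 fold changes of 0.26, 0.21 and 0.18. PSMD14 encodes the deubiquitinase of the lid. The 3 lid genes that were not called had log2 fold changes of 0.08 (SEM1), 0.06 (PSMD3) and -0.03 (PSMD7), with limma adjusted p-values of 0.156, 0.150 and 0.561. SEM1 and PSMD7 had overlapping groups, and PSMD3 did not.

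The other activators split. PSME4 (chromosome 2, 53864069 to 53970993, minus strand, hg38), which encodes PA200, a large single-chain cap linked to degradation of acetylated histones and to DNA repair, was 151, 160 and 160 in control and 111, 120 and 128 in knockdown replicates. Every knockdown library lay below every control library, and 76.4% of the control mean remained (log2 fold change -0.39, SE 0.05; limma adjusted p = 2.82e-06). PSME3, the nuclear cap PA28-gamma, was 132, 133 and 129 in control and 147, 145 and 145 in knockdown, 1.11-fold (log2 fold change 0.15, SE 0.04; limma adjusted p = 0.00186). PSMF1, the inhibitor PI31, was 170, 172 and 169 in control and 180, 180 and 187 in knockdown, 1.07-fold (log2 fold change 0.10, SE 0.03; limma adjusted p = 0.0215). The call of PSMF1 was lost under median-ratio scaling (adjusted p = 0.081), library-size scaling (0.0665), limma-voom (0.0745) and without control replicate 1 (0.0671), control replicate 3 (0.07) or knockdown replicate 3 (0.0503). PSME4 overlaps ACYP2, PSME3 overlaps BECN1, and PSMF1 overlaps TMEM74B, all on the opposite strand, and PSMF1 also overlaps clone-named genes.

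**Figure D4:**
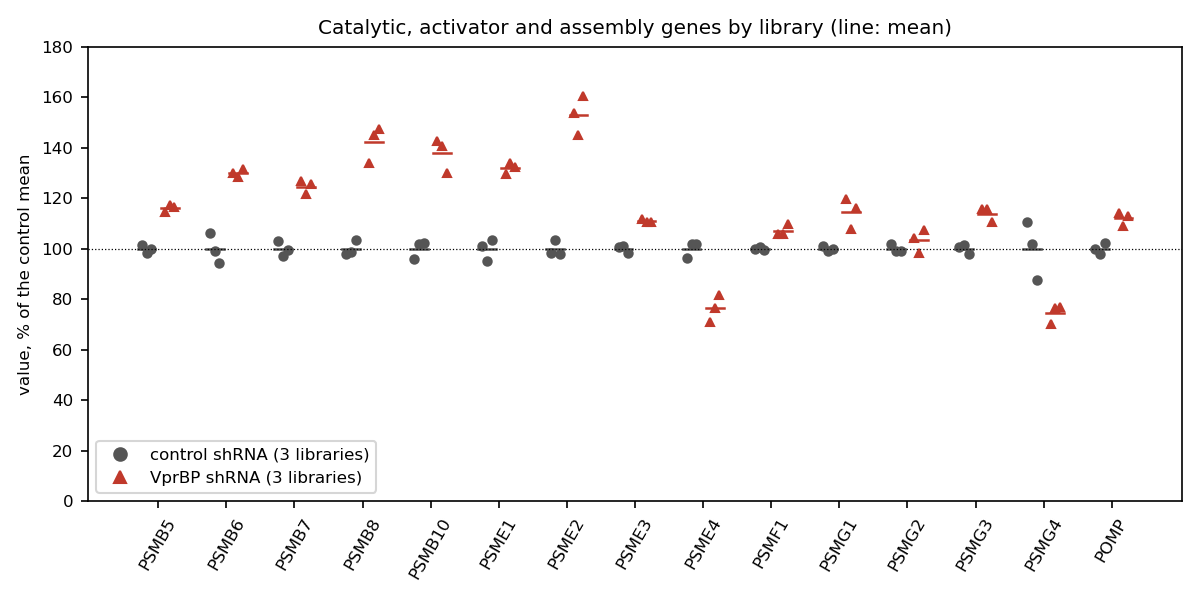
Value in each library as a percentage of the control mean (y axis, %) for catalytic, activator, inhibitor and assembly genes (x axis), with control libraries as circles, knockdown libraries as triangles and group means as lines. PSME2 has the highest mean (153% of control), PSME4 and PSMG4 are the genes under 100% (76.4% and 74.4%), and PSMG2 overlaps.

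Among the assembly factors 6 of 8 genes were higher and 1 was lower, the median log2 fold change was 0.19, and the largest rise was 1.24-fold. For the core, PSMG1 and PSMG2 form the first chaperone pair of the alpha ring. PSMG1 was 57.9, 56.9 and 57.2 in control and 68.6, 61.7 and 66.5 in knockdown replicates (log2 fold change 0.19, SE 0.05; limma adjusted p = 0.00296). PSMG2 was 52.6, 51.3 and 51.1 in control and 53.9, 50.8 and 55.5 in knockdown (log2 fold change 0.05, SE 0.05; limma adjusted p = 0.442). The groups of PSMG1 did not overlap and those of PSMG2 did, but the difference between these partners was not tested.

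PSMG3 and PSMG4 form the second chaperone pair, and only PSMG3 rose. PSMG3 was 36.8, 37.0 and 35.8 in control and 42.2, 42.2 and 40.5 in knockdown replicates (log2 fold change 0.19, SE 0.05; limma adjusted p = 0.00586). PSMG4 (chromosome 6, 3231403 to 3303373, plus strand, hg38) was 19.6, 18.0 and 15.5 in control and 12.4, 13.5 and 13.6 in knockdown, and 74.4% of its control mean remained (log2 fold change -0.41, SE 0.09; limma adjusted p = 0.00104). The control libraries of PSMG4 spread more than those of most members, and the groups still did not overlap. The interval listed for PSMG4 also overlaps SLC22A23 and TUBB2B on the opposite strand. POMP, the maturation factor that joins the half-built cores, was 155, 152 and 159 in control and 177, 169 and 175 in knockdown, 1.12-fold (log2 fold change 0.16, SE 0.04; limma adjusted p = 0.00107).

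The chaperones of the 19S base that are among the 48 genes, PSMD10, PSMD9 and PSMD5, all rose. PSMD10 (gankyrin) was 77.4, 78.7 and 77.1 in control and 95.2, 94.4 and 99.1 in knockdown replicates, 1.24-fold (log2 fold change 0.31, SE 0.04; limma adjusted p = 8.61e-06). PSMD9 was 54.0, 55.2 and 57.5 in control and 71.8, 66.5 and 64.6 in knockdown (log2 fold change 0.28, SE 0.05). PSMD5 was 47.1, 48.5 and 48.4 in control and 52.4, 53.4 and 64.6 in knockdown (log2 fold change 0.23, SE 0.07; limma adjusted p = 0.00636). None of the 3 overlapped between groups. The interval listed for PSMD9 also overlaps the gene WDR66 on the same strand. Without knockdown replicate 3 the log2 fold change of PSMD5 was 0.14 (limma adjusted p = 0.025).

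Genes that work with the proteasome without being part of it did not move as a block. Of 46 such genes, 20 rose and 8 fell, while 18 passed in neither direction. Their median log2 fold change was 0.03, and the shares of all listed genes called higher and lower were 33.0% and 27.8%. Among 10 genes of subunit transcription, 2 rose and 3 fell. Those that rose were NGLY1 (log2 fold change 0.34, limma adjusted p = 0.000305) and VCP (0.20, limma adjusted p = 0.000104). Neither had overlapping groups. Those that fell were MAFK, DDI2 and MAFG (MAFG: log2 fold change -0.33, limma adjusted p = 5.56e-05). NFE2L1 was 258, 260 and 267 in control and 263, 263 and 270 in knockdown replicates, with overlapping groups (log2 fold change 0.02, SE 0.03; limma adjusted p = 0.608), and NFE2L2 also overlapped (log2 fold change 0.02, SE 0.04; limma adjusted p = 0.645). DDI2, the protease that cuts and activates NRF1, was 76.3, 82.6 and 80.9 in control and 59.2, 63.2 and 59.96 in knockdown (log2 fold change -0.39, SE 0.05; limma adjusted p = 2.62e-06). MAFK, a small MAF protein that pairs with NRF1 on DNA, was 106, 103 and 111 in control and 78.0, 79.1 and 70.6 in knockdown (log2 fold change -0.49, SE 0.05; limma adjusted p = 2.70e-07). Both had groups that did not overlap. These are transcript levels and give no measure of NRF1 processing. On the same strand, the interval listed for DDI2 overlaps RSC1A1 and that of MAFG overlaps SIRT7.

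Of 18 docked enzymes and substrate shuttles, 7 rose (38.9%) and 3 fell (16.7%), against 33.0% higher and 27.8% lower among all listed genes. The same shares are the background for the smaller classes. Of 6 ubiquitin and activating-enzyme genes, 4 rose and none was called lower by limma (0), also at an unadjusted p under 0.05 (0) and by limma-voom (0). Of 5 genes of the VCP segregase, which extracts substrates from complexes, 3 rose and 1 fell. That one, the adaptor UBXN7, was 87.0, 91.5 and 88.5 in control and 59.0, 68.2 and 60.6 in knockdown replicates (log2 fold change -0.51, SE 0.05; limma adjusted p = 4.98e-07).

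Of 7 peptidases that trim proteasome products, 4 rose (57.1%) and 1 fell (14.3%), beside 33.0% higher and 27.8% lower among all listed genes. DPP3, a dipeptidyl peptidase, had the largest positive change of the 46 genes: it was 61.8, 66.01 and 69.1 in control and 105, 100.4 and 97.2 in knockdown replicates, 1.54-fold (log2 fold change 0.62, SE 0.05; limma adjusted p = 1.89e-08). LAP3, leucine aminopeptidase, was 64.0, 61.8 and 58.7 in control and 82.9, 84.2 and 84.1 in knockdown, 1.36-fold (log2 fold change 0.44, SE 0.05). NPEPPS, the puromycin-sensitive aminopeptidase, was 238, 247 and 243 in control and 309, 309 and 330 in knockdown, 1.30-fold (log2 fold change 0.38, SE 0.04). In these 3 genes every knockdown library exceeded every control library.

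**Figure D5:**
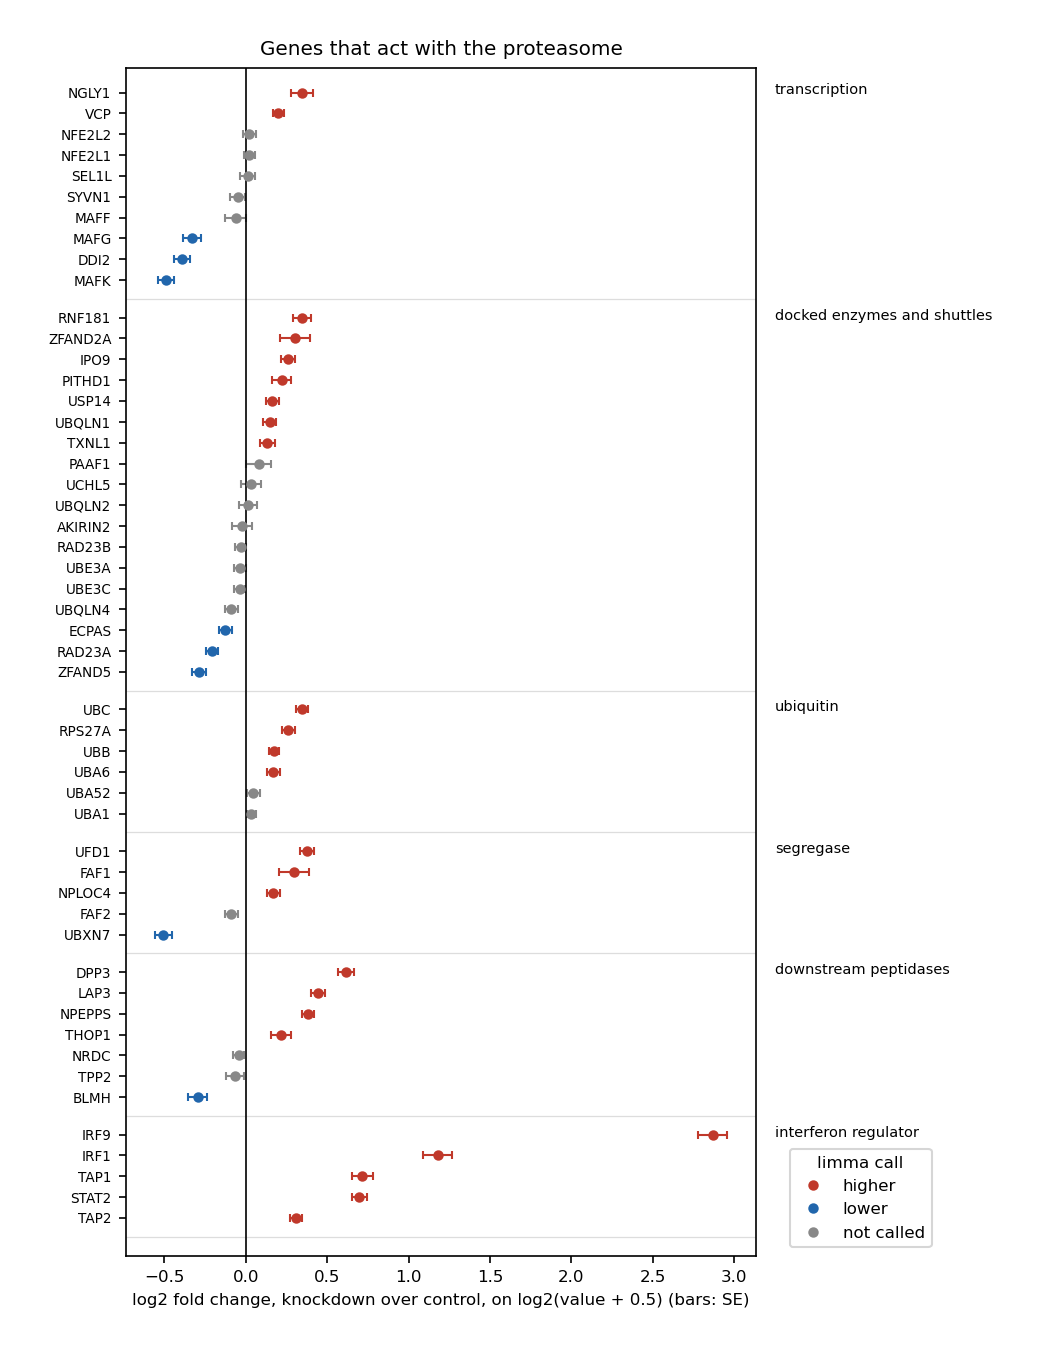
Log2 fold change (x axis, knockdown over control, on log2(value + 0.5), bars of 1 SE) of the 46 genes that act with the proteasome and of 5 interferon-linked genes (y axis), grouped by class. Points on both sides of 0 stand in most classes, with UBXN7 lowest at -0.51, while the 5 interferon-linked genes all lie above 0, up to 2.87 for IRF9.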

How the data were processed

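RNA-seq was analysed from 6 PC3 libraries, 3 per group. The table deposited by the authors is named raw counts but holds a scaled signal: the 75th percentile over genes was 78.99 to 79.02 in every library, and values were spaced by 1 step per library. Between 55.5% and 65.0% of a library's values were whole multiples of that step, within 0.02 reads, so counts could not be recovered for every gene and no count model was used. Estimated depth is the sum of values divided by the step. The submitters' processing notes name Partek and, as the build, hg38. The sources used here do not give the aligner, annotation, strand setting or scaling. Every one of the 12227 genes had 150 or more estimated reads in at least 1 library. Of their symbols, 20 were listed more than once. Coordinates are those of the deposited table with the end reduced by 1: of 12012 genes on the same chromosome in GENCODE 29, 6958 then had an identical end (153 without that step) and 6912 an identical start.

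All listed genes were tested with limma 3.58.1 (R 4.3.3; trend) on log2(value + 0.5), a scale that understates changes of low genes, two-sided, with Benjamini-Hochberg adjustment over all of them. Folds are ratios of group means. The procedure was tested on simulated data. Coding and transcript lengths came from GENCODE 29, and promoter sequences from RefSeq (GRCh38.p14), where PSMB7, PSMA7, PSMB6, PSMB1, PSMD4 and PSMG3 had no entry. The genes and lists were chosen with earlier results of these data known. Values in every library are given for catalytic, inducible, activator, inhibitor and assembly genes, and in each other role for up to 3 called genes of largest change per direction. From the associated list, the 3 largest called changes per direction and the interferon-linked genes are named; a few genes of the interferon and marker lists are not reported here. NFE2L1, NFE2L2, NGLY1, VCP, MAFG, PSMA6, PSMC4 and uncalled lid genes were added after their values were seen. Alternatives were other scalings, pseudocounts of 0.1 and 1, a filter at a mean of 5, limma-voom, a replicate block, fold minimums and each library left out.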

Additional observations from a re-analysis of the deposited data

How the results depend on the processing

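Over 13 alternatives (scalings, pseudocounts, a filter, limma-voom, a replicate block and each library left out), 616 of 624 values of the 48 genes kept direction and call, 7 lost the call (all PSMF1), 1 gained it (PSMA6) and 0 reversed. The number of members called higher stayed between 39 and 41, with 2 lower in each. A minimum rise of 25% or fall of 20% left 14 members higher and 2 lower, and a minimum of 1.5-fold left 2 higher and 0 lower. For the 46 associated genes these left 7 higher and 4 lower, and 1 higher and 0 lower. Median-ratio scaling moved the median log2 fold change of all genes from 0.0239 to -0.001 and gave role medians of 0.281 (constitutive beta), 0.237 (base), 0.184 (lid), 0.124 (activators and inhibitor) and 0.164 (assembly). Library-size scaling gave 0.283 (beta), 0.24 (base) and 0.126 (activators), and limma-voom 0.281 (beta), 0.241 (base), 0.185 (lid) and 0.127 (activators). Leaving out 1 library moved role medians within 0.211 to 0.305 (alpha ring), 0.287 to 0.328 (beta), 0.198 to 0.247 (lid) and 0.137 to 0.157 (activators). The cause of these shifts was not tested. Same-numbered libraries did not deviate together over genes (correlations of 0.018, -0.156 and -0.168). These values gave no sign of pairing by number, but they cannot show how the samples were handled. With a replicate block 39 members were higher and 2 lower, and PSMF1 was lost (limma adjusted p = 0.058). Over all genes the block gave 3826 higher and 3216 lower, against 4037 and 3404 without it. Libraries of 1 group differed by more than counting error (chi-square divided by its degrees of freedom, 3.39 to 6.69), and 3 libraries per group limit the exact test to p = 0.1.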
